A study of Homo sapiens with 22 samples.

Results

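The HOX genes encode homeodomain transcription factors that lie in 4 tight clusters in the human genome. The set described here is the 39 protein-coding genes named HOXA, HOXB, HOXC or HOXD plus a number, out of 19970 protein-coding genes on chromosomes 1 to 22 and X listed by RefSeq (GRCh38.p14, which is hg38). HOXA has 11 of them, HOXB 10, HOXC 9 and HOXD 9. Each cluster was taken from its first to its last gene with 50 kb added on either side. This gave chr7:27042993-27250091 for HOXA (207 kb), chr17:48478526-48778750 for HOXB (300.2 kb), chr12:53888831-54106030 for HOXC (217 kb) and chr2:176037487-176240907 for HOXD (203 kb). The choice rests on gene names and positions alone and used no measured value.

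All cells derived from DLD-1, a long-established human line from a colorectal adenocarcinoma, and carried MTBP with the degron tag mAID on at least 1 allele. In CUT&RUN an antibody directs a nuclease that cuts out nearby chromatin. FLAG antibody was used on 3 libraries of MTBP-mAID/MTBP-WT-FLAG cells (WT below), 3 of MTBP-mAID/MTBP-deltaC-FLAG cells (deltaC, a C-terminal truncation) and 3 of MTBP-mAID/MTBP-mAID cells, which have no FLAG tag. In MTBP-mAID/MTBP-WT-FLAG cells it was also done with an antibody to H3K4me2 and with control IgG (2 libraries each). EdU-seq, which sequences newly made DNA carrying a nucleotide analogue, was done on WT cells arrested in G1 and on WT and deltaC cells released into S phase (3 libraries each, 10 µM EdU for 3 hr; the released cells were held with hydroxyurea and aphidicolin). Whether each line is a single clone is not given in the sources used here. The values below come from the authors' lists of MTBP peaks, H3K4me2 peaks and initiation zones, which give 1 value per peak, with no library values beside it, so no spread between replicates can be given and no p-value was computed. The depth behind the lists is unknown. The untagged, IgG and G1-arrested libraries were not analysed here, so the background level at these loci was not tested.

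HOX proteins set positional identity along the head-to-tail axis of the embryo, and genes at one end of a cluster act more anteriorly than those at the other. Members with the same number in different clusters are paralogs that arose when an ancestral cluster was copied. Polycomb complexes keep HOX genes silent where they are not needed and trithorax complexes, which methylate histone H3 at lysine K4, keep them active, and adult intestinal cells retain a regional HOX pattern. H3K4me2 marks active or poised promoters and enhancers. MTBP is the partner of Treslin, and the pair is needed for the replicative helicase to be activated at the start of S phase.

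The clusters also hold microRNA genes, whose products repress HOX messenger RNAs among other targets. The mature RNAs below are shown because 4 of the 8 microRNA genes of the spans had an MTBP peak within 1 kb (MIR196B, MIR196A2, MIR10A and MIR615), as did 10.2% of all microRNA genes. Sequences are RefSeq's for GRCh38.p14, written 5′ to 3′, and capitals mark the seed, bases 2 to 8. MIR196A1 in HOXB (chr17:48632532-48632553, minus strand) and MIR196A2 in HOXC (chr12:53991762-53991783, plus strand) give the same miR-196a-5p. MIR196B in HOXA (chr7:27169528-27169549, minus strand) gives miR-196b-5p, which shares its seed. MIR10A lies in HOXB (chr17:48579904-48579926, minus strand) and MIR615 in HOXC (chr12:54034010-54034031, plus strand).
hsa-miR-196a-5p: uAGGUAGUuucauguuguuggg
hsa-miR-196b-5p: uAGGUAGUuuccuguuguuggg
hsa-miR-10a-5p: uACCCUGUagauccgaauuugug
hsa-miR-615-3p: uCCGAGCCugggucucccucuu

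Of the HOX genes, 20 had a listed start site in RefSeq's promoter table, at 26 distinct positions. The 250 bases upstream of 4 of these starts are shown as examples of the combinations seen, with CG dinucleotides in capitals. HOXA13 (chr7:27200092-27200341, minus strand) and HOXD11 (chr2:176107030-176107279, plus strand) overlapped both an MTBP and an H3K4me2 peak. HOXD1 (chr2:176188418-176188667, plus strand) overlapped H3K4me2 alone. HOXA2 (chr7:27102684-27102933, minus strand) overlapped neither.
HOXA13: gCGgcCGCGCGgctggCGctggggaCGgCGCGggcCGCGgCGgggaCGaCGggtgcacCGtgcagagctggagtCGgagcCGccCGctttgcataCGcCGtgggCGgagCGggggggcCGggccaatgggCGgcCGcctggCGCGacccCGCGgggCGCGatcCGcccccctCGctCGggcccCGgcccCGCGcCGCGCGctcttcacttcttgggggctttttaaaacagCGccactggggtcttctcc
HOXD11: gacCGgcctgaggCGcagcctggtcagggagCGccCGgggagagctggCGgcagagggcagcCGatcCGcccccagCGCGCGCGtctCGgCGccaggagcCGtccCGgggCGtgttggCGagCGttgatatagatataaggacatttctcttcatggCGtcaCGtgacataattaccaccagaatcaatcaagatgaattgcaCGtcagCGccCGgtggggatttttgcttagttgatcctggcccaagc
HOXD1: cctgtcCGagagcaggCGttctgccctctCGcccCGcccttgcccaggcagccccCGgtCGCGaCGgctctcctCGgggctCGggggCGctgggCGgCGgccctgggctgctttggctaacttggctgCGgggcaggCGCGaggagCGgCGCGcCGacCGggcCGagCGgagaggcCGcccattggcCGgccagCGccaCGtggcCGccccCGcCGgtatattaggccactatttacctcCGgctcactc
HOXA2: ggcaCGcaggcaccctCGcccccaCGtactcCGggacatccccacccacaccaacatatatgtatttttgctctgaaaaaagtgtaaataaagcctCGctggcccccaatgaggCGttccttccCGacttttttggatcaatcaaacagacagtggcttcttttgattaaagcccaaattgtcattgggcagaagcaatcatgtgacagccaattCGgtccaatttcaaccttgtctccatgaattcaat
These windows hold 40 CG dinucleotides in HOXA13, 23 in HOXD11, 31 in HOXD1 and 8 in HOXA2.

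The 4 clusters differed widely in how much MTBP and H3K4me2 they carried. The spans held 46 MTBP peaks, of which 22 were in HOXB, 14 in HOXA, 6 in HOXC and 4 in HOXD. Per Mb this was 73.3 in HOXB, 67.6 in HOXA, 27.6 in HOXC and 19.7 in HOXD, against 9.85 over the 3030 Mb spanned by chromosomes 1 to 22 and X. H3K4me2 peaks covered 48.3% of the HOXA span and 41.5% of the HOXB span, but 12.2% of HOXC and 8.18% of HOXD, against 3.58% of the genome. When the genome was cut into 15137 tiles of 200 kb, 0.555% of tiles had at least the MTBP density of HOXA and 0.344% that of HOXB, whereas 10.3% reached that of HOXC and 21.2% that of HOXD. For H3K4me2 cover, 0 tiles reached the share in HOXA and 3 the share in HOXB, and the highest tile had 47.0%. Tiles were laid without regard to genes, so they are not centred on features as the spans are, and these shares are a description.

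**Figure D1:**
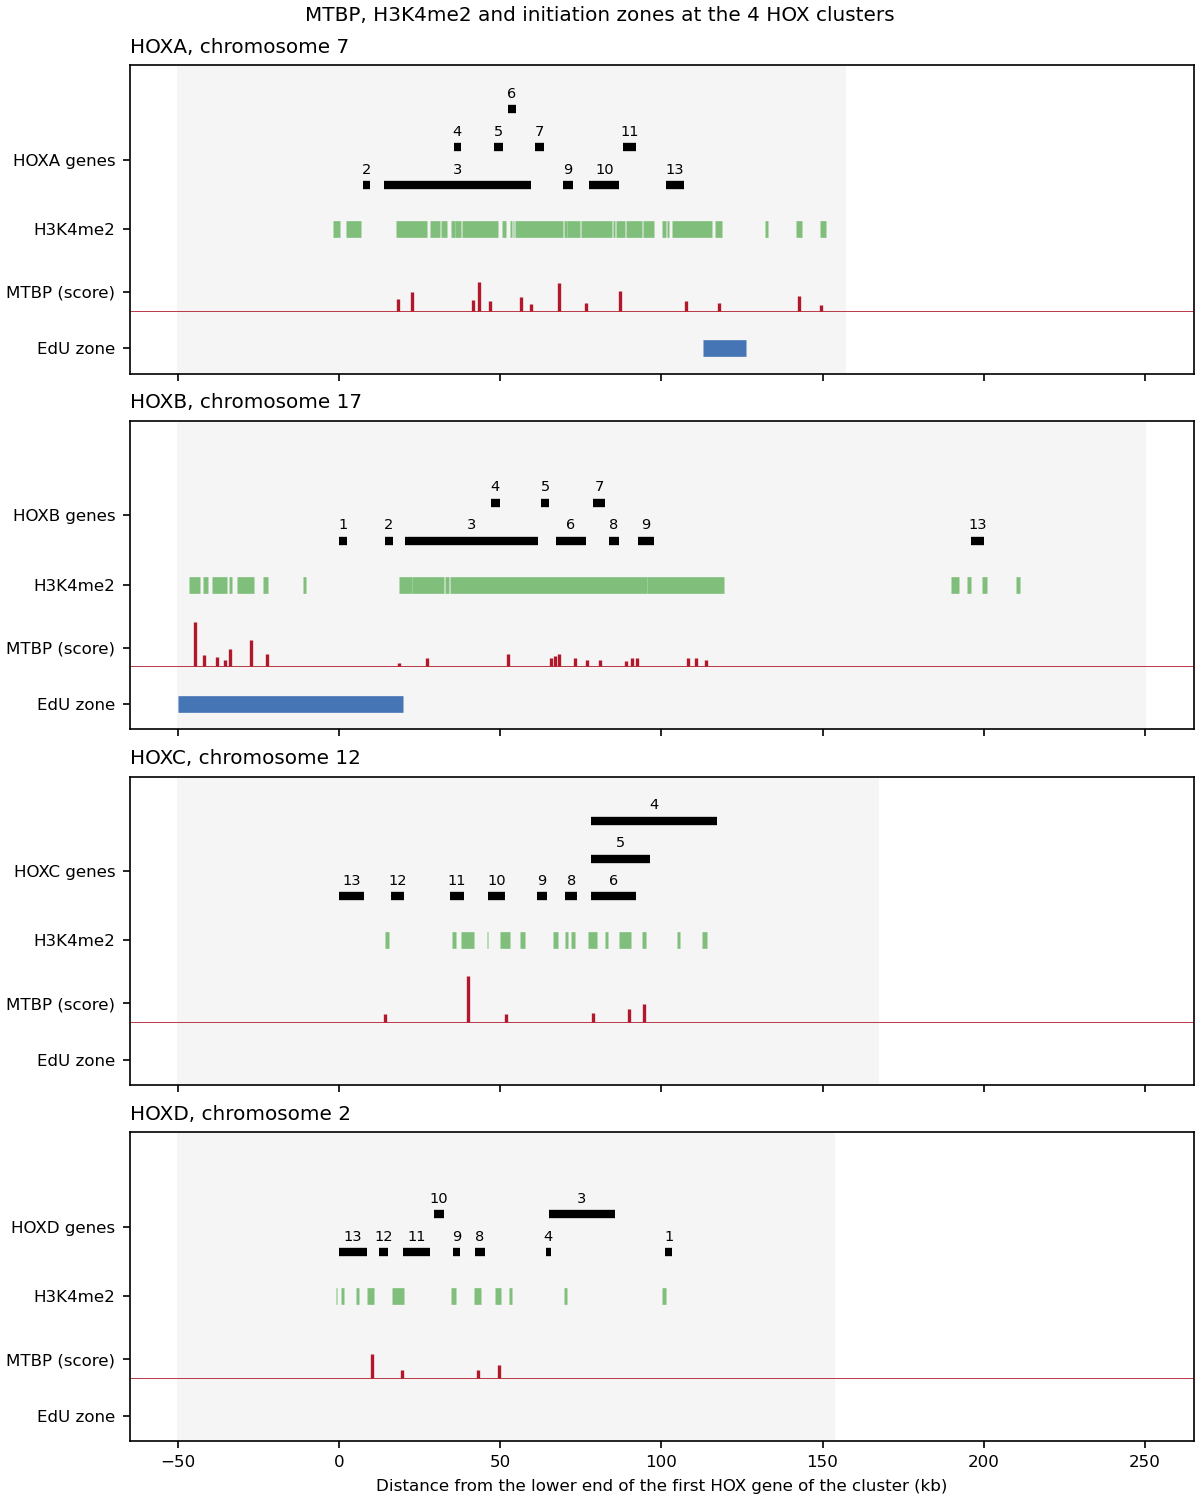
Each panel shows 1 HOX cluster against distance in kb from the lower end of its first gene, with the HOX genes named in the text as black bars labelled by paralog number, H3K4me2 peaks in green, MTBP peak summits in red with a height in proportion to the authors' score (highest 645), initiation zones in blue and the span shaded. H3K4me2 covers 77.3% of the stretch from the first to the last gene in HOXA and 52.3% in HOXB, where it is missing over HOXB1 and HOXB2 and over much of the gap before HOXB13. HOXC (22.7%) and HOXD (15.8%) carry short separate peaks, and 0 zones overlap the HOXC and HOXD spans.

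All 46 MTBP peaks overlapped an H3K4me2 peak, and 98.9% of MTBP peaks in the genome did. Of the 68 H3K4me2 peaks in the spans, 29 had MTBP (42.6%), against 43.6% of all H3K4me2 peaks. By cluster these were 10 of 16 in HOXB, 9 of 26 in HOXA, 6 of 15 in HOXC and 4 of 11 in HOXD. Set against the length under H3K4me2, HOXC and HOXD were above HOXA and HOXB: there were 14.001 MTBP peaks per 100 kb of H3K4me2 in HOXA, 17.7 in HOXB, 22.6 in HOXC and 24.05 in HOXD, and 27.5 over the genome. The higher density of MTBP in HOXA and HOXB thus went with a longer stretch of H3K4me2, with fewer peaks per kb of it.

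**Figure D2:**
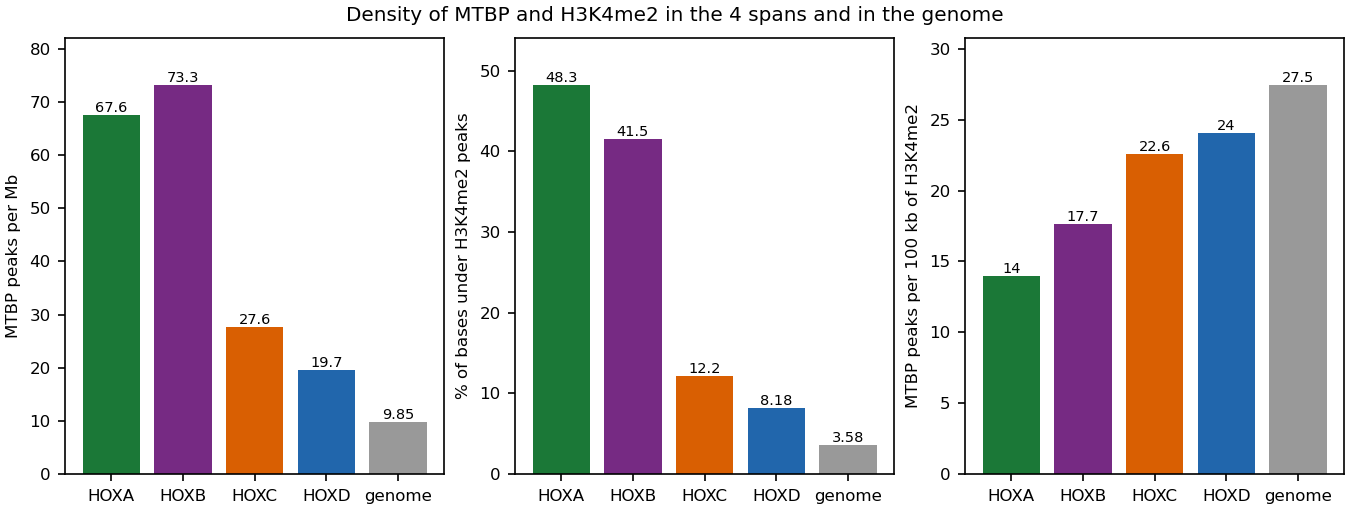
Bars give, for the 4 spans and the genome, the number of MTBP peaks per Mb (left), the percentage of bases under H3K4me2 peaks (middle) and the number of MTBP peaks per 100 kb of H3K4me2 (right), with axes from 0. HOXA and HOXB are highest in the first 2 panels (67.6 and 73.3 peaks per Mb), and all 4 spans lie below the genome's 27.5 in the third.

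The MTBP peaks of the clusters were mostly weak ones. The authors' score had a median of 131 in the spans and 190.0 in the whole list, and 33 of the 46 HOX peaks (71.7%) were below the list's median, as were 47.1% of all peaks. In HOXB it was 19 of 22, in HOXA 8 of 14, in HOXC 3 of 6 and in HOXD 3 of 4. The WT signal per peak had a median of 306 in the spans and 371 in the list. By the authors' location classes, 25 HOX peaks were at promoters (54.3%, against 34.7% in the list), 11 at enhancers or super-enhancers (23.9%, against 17.6%) and 10 in neither (21.7%, against 47.7%). CpG islands were the annotation of 7 HOX peaks (15.2%), against 4.33% of the list.

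The markers of colorectal epithelium gave a check on the labelled cell type. Of 9 such genes, 7 had H3K4me2 within 1 kb of a start, as did 63.8% of all protein-coding genes. A start in an initiation zone was found for 8, against 20.9% of all protein-coding genes. Over 9 genes the H3K4me2 count is thus a weak check. CDX2, an intestinal homeobox gene, had MTBP, H3K4me2 and a zone, and EPCAM, CDH1, VIL1, KRT8 and KRT18 had H3K4me2 and a zone. CDH17 and GPA33 had a zone without H3K4me2 within 1 kb, and KRT20 had H3K4me2 without a zone. H3K4me2 was at 1 of 3 markers of hepatocytes (APOA1), 1 of 3 of blood (CD3E), 1 of 3 of neurons (SYP) and 0 of 3 of muscle, and ALB, TTR, PTPRC, RBFOX3, MYOD1 and DES were without it.

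HOXA, on chromosome 7, had H3K4me2 along most of the stretch from HOXA3 to HOXA13, in peaks that ran over several genes. The widest spanned 14878 bp (chr7:27147504-27162381, fold enrichment 23.7) and covers the starts of HOXA6, HOXA7 and a HOXA3 transcript. It held 3 MTBP peaks. The highest fold of the cluster was 46.7, in a 9555-bp peak inside HOXA3 (chr7:27110566-27120120) that held 2 MTBP peaks. HOXA2, which patterns the branchial arches, had neither mark, with the nearest MTBP summit 8.54 kb from its start.

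The MTBP peak of HOXA with the highest score lay between HOXA4 and HOXA5 (chr7:27135655-27136694, score 396), with a signal of 422 in WT and 194 in deltaC. Its neighbour on the HOXA4 side (chr7:27133998-27135049, score 150) had 245 in WT and 184 in deltaC. The highest WT signal of the cluster was at the HOXA6 promoter (chr7:27147722-27149715), with 592 in WT and 263 in deltaC. At the promoter of HOXA10, a gene of the reproductive tract and limb, the signal was 350.4 in WT and 148 in deltaC (chr7:27179644-27180862). At that of HOXA13, which acts in the limb and hindgut, it was 199.6 in WT and 139 in deltaC (chr7:27199952-27200762). MIR196B lies inside a peak (chr7:27169056-27170498) with 305 in WT and 98.1 in deltaC, the lowest deltaC/WT of the cluster. WT was thus above deltaC at each of these 6 peaks, by margins that differed from peak to peak.

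HOXB, on chromosome 17, held the widest H3K4me2 peak of the genome-wide list, 61074 bp (chr17:48562930-48624003, fold 17.7). It runs from within HOXB3 to within HOXB9 and covers HOXB4 to HOXB8 whole. The next in that list was 41.3 kb wide, over RUNX2. Next to it another peak of 23851 bp (chr17:48624190-48648040, fold 26.0), the 9th widest of 62388, runs on past HOXB9, and this was the highest fold of the cluster. The wide peak held 10 MTBP peaks and its neighbour 3, or 13 over 84.9 kb. The scores of those 10 ranged from 78 to 170 with a median of 116.5, so each was below the list's median of 190.0. Their WT signals ran from 120 to 556 (median 286), so some were above the list's median of 371. Peaks of 5 kb or more made up 4 of the 16 in HOXB and 6 of the 26 in HOXA, 0 of 15 in HOXC and 0 of 11 in HOXD, against 2.42% of the list. These 10 wide peaks held 15.3 MTBP peaks per 100 kb, and the other 1500 wide peaks of the genome 25.4. The 2 groups were not matched for width: the 10 total 163 kb and the 1500 total 10472 kb, so the HOX ones are wider on average. The peaks ranked 2 to 5 by width held 8, 8, 7 and 2 MTBP peaks over 41.3, 36.1, 33.9 and 27.9 kb.

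The strongest MTBP of the HOXB span was in the flank outside the genes. The peak with the highest score (chr17:48482402-48485038, score 618, enhancer class) lay 47.2 kb from the start of HOXB1, with 1115 in WT and 429.9 in deltaC. It was 1 of 7 peaks within 24.8 to 47.2 kb of HOXB1, on the far side from HOXB2. Among the genes, the promoter of HOXB5 had a peak with 203 in WT and 82.98 in deltaC (chr17:48593348-48594588, score 121), and that of HOXB6 one with 404 in WT and 194 in deltaC (chr17:48604069-48606038, score 86). A peak annotated to the HOXB7 intron (chr17:48609113-48609639, score 95) had 120.2 in WT and 8.50 in deltaC, the lowest deltaC/WT of all 46. The highest deltaC/WT in HOXB was at a peak in an L2c repeat of the flank (chr17:48494345-48495199), with 249 in WT and 164 in deltaC.

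HOXB13 stands apart from the rest of its cluster. It is the caudal member, known for its part in the prostate and hindgut, and lies well beyond HOXB9. The MTBP peak that ended at 48642619 and the next, which started at 48795368, were 153 kb apart. That gap holds HOXB13, PRAC1 and PRAC2 and 4 H3K4me2 peaks of the span. The peak where the ends of PRAC2 and HOXB13 face each other had a fold of 25.3 (chr17:48723337-48724749) and that over the other end of HOXB13 a fold of 15.7. The nearest MTBP summit was 67.0 kb from an end of HOXB13.

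HOXC, on chromosome 12, held the strongest MTBP peak of the 4 clusters. It lay at the HOXC11 end that faces HOXC10 (chr12:53977330-53979500, score 645), with a signal of 1603 in WT and 860.3 in deltaC. Its WT signal was the 124th highest of 29848. H3K4me2 over it had a fold of 62.1, the 162nd highest of 62388. The next WT signals of the cluster were 625 at a promoter the authors annotate to HOXC5 (chr12:54032350-54033925, 266 in deltaC) and 501 over the end of HOXC10 that faces MIR196A2 (chr12:53989272-53991254, 392 in deltaC).

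HOXC4, HOXC5 and HOXC6 begin at the same position, 54016888, in RefSeq's gene table, so a peak there counts for all 3. The H3K4me2 peak over it had a fold of 81.4 (chr12:54016149-54018686), the 14th highest in the genome, while the MTBP peak 652 bp away (chr12:54017431-54018354) had a score of 131, with 415 in WT and 274 in deltaC. A strong H3K4me2 signal thus stood beside an MTBP score below the list's median, though the WT signal there was above the list's median of 371. Further on, a peak annotated to an exon of HOXC6 (chr12:54028332-54029044) had 288 in WT and 225 in deltaC. The authors class it as promoter and place it 248 bp from a start site. At the posterior end, HOXC13, a hair and nail gene, had neither mark within 1 kb. The same held for HOXC9, a thoracic gene that lies between HOXC10 and HOXC8. A CpG island peak 1804 bp from HOXC12 (chr12:53952809-53953398) had 190.2 in WT and 25.1 in deltaC, the lowest deltaC/WT of HOXC. HOTAIR, a long noncoding RNA known for its link to Polycomb, had H3K4me2 with a fold of 21.4 and its nearest MTBP summit 3.78 kb away.

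HOXD, on chromosome 2, had the fewest peaks, and all 4 lay between HOXD13 and HOXD-AS2, which is just beyond HOXD8. The highest score (336) was between HOXD13 and HOXD12, both limb genes (chr2:176096498-176098349, enhancer class), with 803 in WT and 592 in deltaC. The HOXD11 promoter peak (chr2:176106775-176107183, score 108) had 136 in WT and 145 in deltaC. It was the 1 HOX peak that the authors named for deltaC rather than WT, as were 877 of the 29848 in the list. The HOXD8 peak had 237 in WT and 197 in deltaC (chr2:176130181-176131006). At HOXD-AS2, a noncoding gene, the signal was 221 in WT and 102 in deltaC (chr2:176136536-176137345), and H3K4me2 had the highest fold of the cluster, 60.6.

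The anterior HOXD genes had no MTBP close by. HOXD1 had H3K4me2 with a fold of 40.8 (chr2:176187601-176188815) and its nearest MTBP summit 51.6 kb away. For HOXD3 the distance was 20.2 kb and the fold 17.2, and HOXD4 had neither mark. In the spans as a whole, the 39 H3K4me2 peaks without MTBP had a median fold of 12.6 and a median width of 1198 bp. The 29 with it had 20.8 and 3301 bp. The HOXD1 peak and one between HOXC10 and HOXC9 (fold 47.8, chr12:53995076-53996499) were the strongest of those without MTBP.

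Counted by gene, 15 of the 39 HOX genes (38.5%) had an MTBP peak within 1 kb of a start, against 42.7% of all protein-coding genes. H3K4me2 was there at 31 (79.5%, against 63.8%), so 16 had H3K4me2 alone and 8 had neither. Among those with H3K4me2 alone were HOXA9 (fold 20.4), HOXA11 (12.6), HOXC8 (20.2) and HOXD9 (17.7), and among those with neither was HOXD10, whose start was 9739 bp from the nearest MTBP summit. Of all protein-coding genes with H3K4me2, 66.9% had MTBP, and of the HOX genes with it, 15 of 31. For the 19 HOX genes with no listed start, either end of the gene was used, and the peaks at HOXB9 and HOXC10 are annotated by the authors to the end of transcription. The peaks at HOXA5 and HOXC11 lie at the downstream end too, if these genes share the strand of their clusters' listed genes. That strand is minus in HOXA and plus in HOXC. The 7 HOX genes with a peak that the authors annotated to their own promoter were HOXA6, HOXA10, HOXA13, HOXB5, HOXB6, HOXC5 and HOXD11.

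By cluster, MTBP was at 5 of 11 HOXA genes (HOXA3, HOXA5, HOXA6, HOXA10 and HOXA13), 3 of 10 HOXB genes (HOXB5, HOXB6 and HOXB9), 5 of 9 HOXC genes (HOXC4, HOXC5, HOXC6, HOXC10 and HOXC11) and 2 of 9 HOXD genes (HOXD8 and HOXD11). A start was listed for 9 of the 11 HOXA, 1 of the 10 HOXB, 2 of the 9 HOXC and 8 of the 9 HOXD genes. Either end was used for the rest, so the counts by cluster rest on unlike starts. Within 500 bp the HOXC count was 2, and the other clusters' counts did not change. By paralog number it was at 1 of 8 genes numbered 1 to 3, at 8 of 15 numbered 4 to 8 and at 6 of 16 numbered 9 to 13, and H3K4me2 at 5, 14 and 12. The paralogs 5 and 6 had MTBP, at a listed start or at either gene end, in each cluster that has them (6 genes). Of these, HOXC5 and HOXC6 share 1 peak at the start used here. The HOXA5 peak lies at the end that faces HOXA4. That is the downstream end if HOXA5 is on the minus strand, as the HOXA genes with a listed start are. Neither paralog 2 gene had either mark within 1 kb. At 5 kb, 28 of the 39 genes had MTBP, against 49.5% of all protein-coding genes. When only MTBP peaks at or above the list's median were counted, 3 genes had one (HOXA6, HOXA10 and HOXC11), against 24.3%. The HOXC11 peak is at the gene end that faces HOXC10. HOXC5 and HOXC6 were looked up at 54016888 and, for HOXC6, at its other end. Promoter-class peaks that the authors annotate to HOXC5 (score 255) and HOXC6 (score 190) lie more than 1 kb from these positions and were not counted. The count of 3 thus depends on which start sites were listed.

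**Figure D3:**
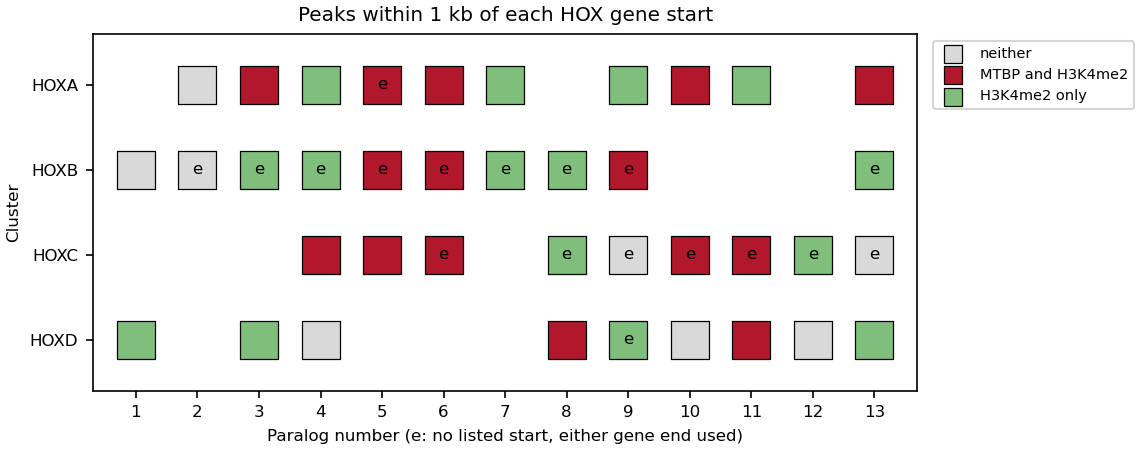
Each square is 1 of the HOX genes named in the text, placed by cluster and paralog number and coloured by the peaks within 1 kb of its start, with an e where no start was listed and either gene end was used. The 15 genes with MTBP all have H3K4me2 as well, and paralogs 5 and 6 are red in each cluster that has them. HOXA5 is red through a peak at the gene end that faces HOXA4.

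Other genes share the spans with the HOX genes. Of 54, 21 had an MTBP peak within 1 kb of a start (38.9%), against 21.3% of all genes other than HOX genes, of any kind. Among them were 14 of 35 long noncoding RNA genes (40%, against 16.8% of all such genes) and 4 of 8 microRNA genes (50%, against 10.2%). These are counted by gene, and neighbours often share a peak with a HOX gene. HOTTIP, a noncoding RNA at the posterior end of HOXA, had its start 84 bp from the summit of the HOXA13 peak. Another peak lay at EVX1, an even-skipped homeobox gene next to HOXA (chr7:27242291-27242984), with 195 in WT and 84.5 in deltaC, while EVX2 next to HOXD had neither MTBP nor H3K4me2 within 1 kb. The long noncoding RNA genes HOXA-AS3, HOXA10-AS, HOXB-AS2, HOXB-AS3, HOXBLINC and HOXD-AS2 had MTBP. HOTAIRM1, HOXA-AS2, HAGLR and HOXC-AS3 had H3K4me2 without it.

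Among the microRNA genes whose products are shown above, the summit lay 29 bp from an end of MIR196B, 429 bp from MIR615, 850.0 bp from MIR10A and 1075 bp from MIR196A2, whose peak reaches to within 1 kb. MIR10A had 311 in WT and 170.3 in deltaC (chr17:48580223-48581254). Of the microRNAs that share the miR-196 seed, MIR196A1 in HOXB was the one without MTBP, with H3K4me2 of fold 26.0 over it and the nearest summit 4.34 kb away. MIR10B in HOXD had neither mark. MTBP near a microRNA gene therefore varied among copies with the same seed.

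Initiation zones touched 2 of the 4 spans. They covered 8.95% of the spans together, against 4.72% of the genome, and this was 23.2% of HOXB, 6.41% of HOXA and 0% of HOXC and HOXD. Most of this lay in the flanks: from the first to the last gene of each cluster, without flanks, zones covered 3.75% together, which is below the genome's 4.72%, with 9.89% of HOXB and 0% of the other 3. The HOXB zone (chr17:48436683-48548324, 112 kb) had a score of 5226, higher than 99.4% of zones. It ends within the cluster, with the starts of HOXB1, which acts in the hindbrain, and HOXB2 inside it. These 2 of the 39 HOX genes (5.13%) had a start in a zone, against 20.9% of protein-coding genes, and neither had H3K4me2 or MTBP within 1 kb. The zone thus lay mostly over the flank, and ended before the widest H3K4me2 peak.

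The HOXA zone was small and weak (chr7:27205822-27219101, 13.3 kb, score 144, higher than 11.6% of zones). It lies beyond HOXA13, over the end of HOTTIP, and held 1 MTBP peak (chr7:27209923-27211492), with 301 in WT and 314 in deltaC, the highest deltaC/WT of HOXA. For HOXC the nearest zone was 179 kb from the span, and for HOXD it was 925 kb. In all, 9 of the 46 HOX peaks were in a zone (19.6%), 8 of them in HOXB, against 23.0% of the list. The 8 HOXB peaks in the zone had WT signals from 223 to 1115 (median 368) and the 14 outside it from 97.6 to 556 (median 286), so the ranges overlap. Their deltaC medians were 91.2 and 109.

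The deltaC signal was below the WT signal at all but 2 of the 46 HOX peaks, and by how much differed between the clusters. On the scale log2((deltaC + 1)/(WT + 1)), the median was −1.43 in HOXB, −1.18 in HOXA, −0.75 in HOXC and −0.35 in HOXD, against −0.93 over all MTBP peaks. These correspond to deltaC signals of 0.371, 0.442, 0.596 and 0.784 of WT, and 0.524 over all peaks. The values ran from −3.67 to −0.60 in HOXB, from −1.62 to 0.06 in HOXA, from −2.87 to −0.35 in HOXC and from −1.10 to 0.09 in HOXD, so the clusters overlap. DeltaC was under 0.5 of WT at 29 of the 46 peaks (63.0%), against 44.9% of all peaks, and this was 17 of 22 in HOXB, 9 of 14 in HOXA, 2 of 6 in HOXC and 1 of 4 in HOXD. Without HOXB it was 12 of 24. DeltaC was above WT at 2 peaks (4.35%), against 4.52%, the HOXA zone peak and the HOXD11 promoter peak.

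**Figure D4:**
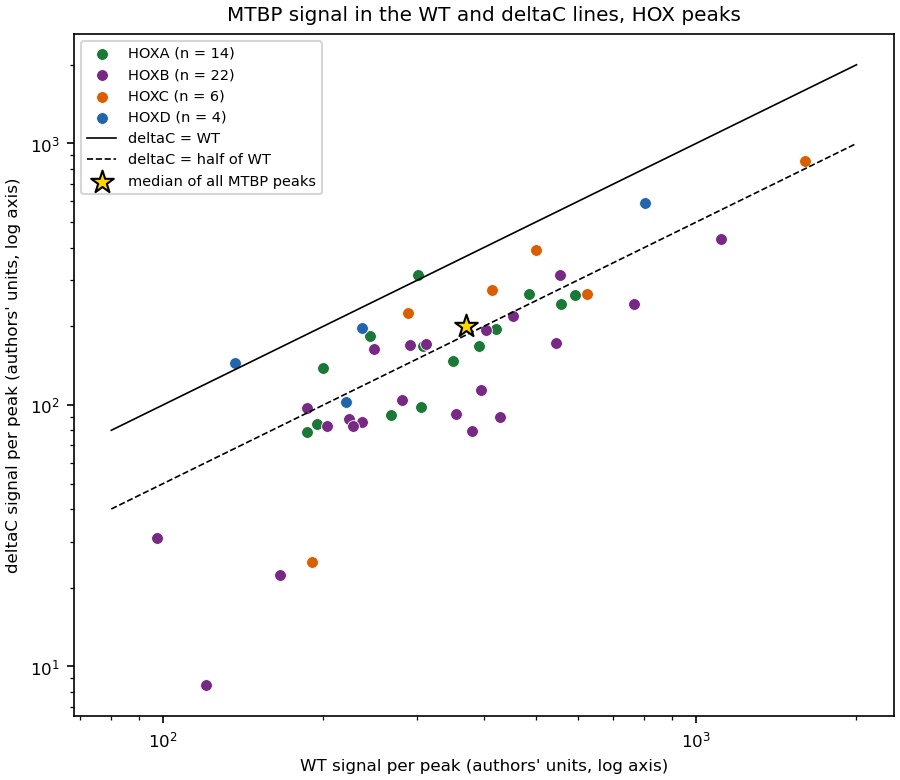
Each point is 1 of the 46 HOX MTBP peaks, with the authors' WT signal on the horizontal and deltaC signal on the vertical axis (both log), coloured by cluster, with lines at equal signal and at 0.5 of it, and the median of all MTBP peaks as a star. Most HOXB and HOXA points lie under the dashed line, and 2 points lie above the solid line.

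The values of other peaks near each cluster are given beside these. The other 201 MTBP peaks within 5 Mb of HOXB had a median of −1.22 and the other 1529 on chromosome 17 the same, with deltaC under 0.5 of WT at 69.2% and 65.1% of them. The HOXB median differed from that within 5 Mb by −0.21. For HOXA the other 133 peaks within 5 Mb had −0.88, and the cluster differed by −0.29. Around HOXC, 250 peaks had −1.18, and around HOXD, 132 peaks had −0.84, and there the cluster medians were 0.43 and 0.49 higher than their surroundings, over 6 and 4 peaks. The copy number of these regions and the scaling of the 2 signals were not examined here, and their part in the differences was not tested.

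**Figure D5:**
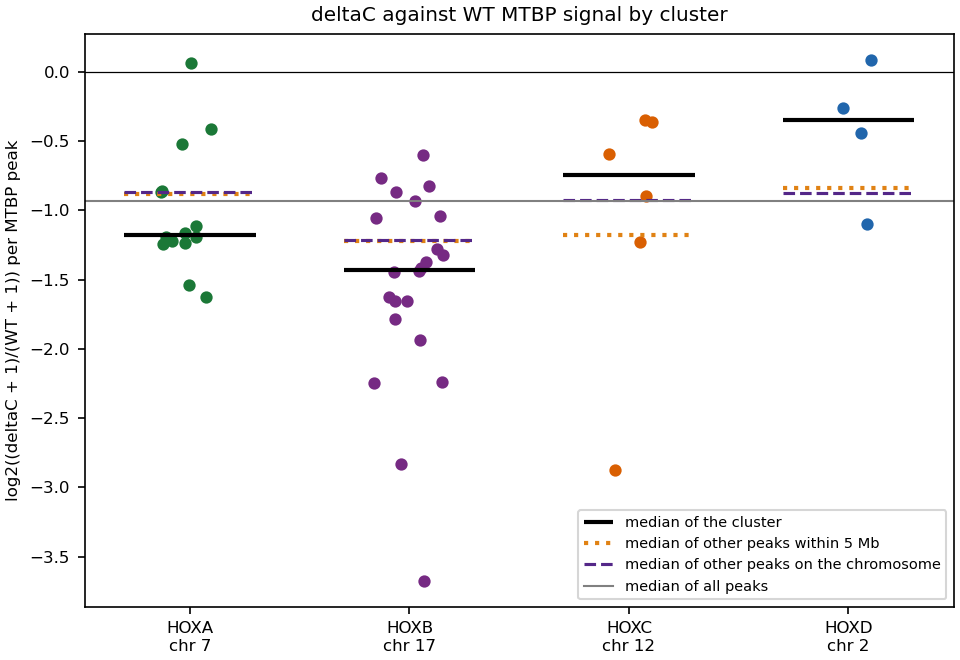
Points give log2((deltaC + 1)/(WT + 1)) for each HOX MTBP peak by cluster, with lines for the median of the cluster (black), of other peaks within 5 Mb (dotted), of other peaks on the chromosome (dashed) and of all peaks (grey). The cluster median lies below the local median in HOXA and HOXB and above it in HOXC and HOXD.

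The upstream sequences were described for the 26 distinct starts listed for 20 HOX genes, of which HOXA3 has 7. The 250-base windows held a median of 19.5 CG dinucleotides (range 0 to 40), against 11 over 34789 windows of all listed genes. The 5 that overlapped MTBP (HOXA3, HOXA6, HOXA10, HOXA13 and HOXD11) had a median of 23 and the other 21 a median of 19, and all windows with MTBP had 21. H3K4me2 overlapped 20 of the 26, against 16665 of the 34789 windows of all listed genes. MTBP overlapped 5 of the 26, against 10453 of the 34789, which is a higher share than in the HOX windows. Motifs were searched on both strands, and a match is a description of the letters. The CCAAT box (CCAAT) was in 17 of the 26 (65.4%), against 31.996% of all windows. The E-box (CACGTG) was in 8 (30.8%, against 6.33%), the caudal-type word TTTATNG in 6 (23.1%, against 8.95%), the PBX-HOX word TGATTNAT in 2 (7.69%, against 2.49%), the TATA box (TATAAA) in 5 (19.2%, against 10.8%) and the GC box (GGGCGG) in 13 (50%, against 42.6%). Windows of neighbouring HOXA3 starts are from 1 gene, so they are not independent.

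The partners and regulators of HOX genes were counted the same way. Of 9 cofactor genes, whose proteins bind DNA with HOX proteins, 3 had MTBP, with the highest scores at PKNOX1 (336) and MEIS2 (289), and 6 had H3K4me2, and PBX2 and PBX3 were among those with H3K4me2 alone. Of 17 Polycomb genes, 11 had MTBP and all 17 had H3K4me2. JARID2 (score 485), EZH1 (459), EED (336) and PHF1 (324) had the highest scores, and SUZ12, AEBP2 and RING1 were among the 6 with H3K4me2 alone. Of 10 trithorax and demethylase genes, 8 had MTBP and 10 had H3K4me2, with RBBP5 (591), ASH2L (409), DPY30 (289) and KMT2B (222) highest, and WDR5 and KDM6A, which lies on X, were without MTBP. Of 13 related homeobox genes, 3 had MTBP (CDX2, PDX1 and EVX1, with scores of 170, 103 and 78) and 5 had H3K4me2, while CDX4 and GSX1 were among the 8 with neither and CDX1 had H3K4me2 alone. Against the 42.7% of all protein-coding genes with MTBP, these shares were 33.3%, 64.7%, 80% and 23.1%, over few genes each. The H3K4me2 counts of 6 of 9, 17 of 17, 10 of 10 and 5 of 13 stand against 63.8% of all protein-coding genes.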

How the data were processed

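MTBP binding and H3K4me2 were measured by CUT&RUN and replication initiation by EdU-seq in 22 DLD-1 libraries. The submitters' processing notes name Trim Galore, Bowtie2, MACS2 and HOMER, and hg38 as build. Their versions and settings, and whether replicates were pooled, are not stated there. Each deposited MTBP peak carries the authors' score and a signal for WT and for deltaC, whose scaling is unknown. The deposited zone list gives an average score per zone. The deposited H3K4me2 list holds a score and a fold enrichment. These values served only to describe or rank peaks of 1 list.

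Peaks on chromosomes 1 to 22 and X were used, with coordinates 1-based for H3K4me2 and as the file gives them for MTBP and zones. Overlap meant at least 1 bp. Genes came from RefSeq's tables for GRCh38.p14; 15811 of 19970 protein-coding genes had a listed start, and either gene end stood in for the others. No count model of WT and deltaC could be fitted without values per library, so log2((deltaC + 1)/(WT + 1)) was given without a test. Shares of genes and peaks were set beside the same share over all. By rule the HOX genes were named (1 HOX and 1 cofactor gene are in the counts but not reported here), and of the peaks in each cluster those with the highest score, the highest and lowest deltaC/WT and the highest H3K4me2 fold. The plan was to name each gene next to them with MTBP within 1 kb, but only part of these 21 were named. Of each list, the members with the highest MTBP scores and the first listed without MTBP were named. Other peaks, genes and markers named were chosen after their values were seen. The members and lists were chosen with earlier results of these data known. The overlap functions were tested on 265 simulated intervals and recovered 265. Python 3.11.15, pandas 2.3.3 and matplotlib 3.10.9 were used. Alternatives were other flanks, windows, score limits, pseudocounts and start sites.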

Additional observations from a re-analysis of the deposited data

How the results depend on the processing

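The counts of MTBP and H3K4me2 peaks and of genes were recomputed under other settings for the 4 clusters together. So were the zone cover, the median deltaC/WT and the count of peaks with deltaC under 0.5 of WT. In 22 such comparisons the value stayed within 1.5 times of the one given, and in 12 it moved further. For the median deltaC/WT this was judged on the ratio, not on its log2. When each list was limited to peaks at or above its median score, the spans held 13 MTBP peaks and 41 H3K4me2 peaks, 3 HOX genes had MTBP, and deltaC was under 0.5 of WT at 9 of 13 peaks, against 46.9% of all peaks so limited. Without HOXB, a setting chosen after seeing the data, there were 24 MTBP peaks, 12 of them with deltaC under 0.5 of WT. Zones covered 3.75% of the spans without flanks, below the 4.72% of the genome. When widened by 50 kb they covered 25.2% of the spans with flanks. The genome's share under widened zones was not computed, so 4.72% cannot be set beside it. MTBP was at 28 HOX genes within 5 kb. Of single clusters, HOXB held 8 H3K4me2 peaks without flanks, MTBP was at 8 HOXA genes when either end was used for all, and with the median score MTBP peaks numbered 6 in HOXA, 3 in HOXB, 3 in HOXC and 1 in HOXD. Among the 20 genes with a listed start, also chosen after seeing the data, 8 had MTBP (45.0% of all such genes do) and 15 had H3K4me2 (65.8%). With the median of other peaks on the chromosome subtracted (added later too), the median log2 deltaC/WT was −0.21 over the 46 peaks. It was 0.18 in HOXC and 0.53 in HOXD. These are differences from the chromosome's median (−0.92 on chromosome 12 and −0.88 on chromosome 2), so deltaC was still below WT there. Why the clusters differ from their chromosomes was not tested.

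No paired analysis was possible because the lists hold 1 value per line and no library values. Leaving out replicates, the replicate block and the planned count model were not run, as each needs library values. These lists do not show sequencing depth, and no counting error is given for the weak peaks of HOXB and HOXD.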
